A study of Mus musculus with 20 samples.

Results

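The fatty acid elongases and desaturases of the liver were followed across a knockdown (KD) of HuR, the RNA-binding protein encoded by ELAVL1, in human hepatocytes and in mouse liver. The members were 8 gene pairs, chosen by name in both expression tables: SCD with mouse Scd1, and FADS1, FADS2, ELOVL1, ELOVL2, ELOVL3, ELOVL5 and ELOVL6 with the mouse genes of the same names. They make up 16 of the 115942 genes listed in both tables together. The set was put together because ELOVL5 was the most strongly lowered human gene after HuR KD. The human KD values therefore chose the set and are given as a description with no test. The mouse values did not enter that rule and were tested, although earlier results of these data were known when the members and tests were chosen.

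RNA from 20 livers was sequenced in 4 groups. The humanized mice were TK-NOG animals, immune-deficient NOG mice whose hepatocytes carry a viral thymidine kinase transgene driven by the mouse albumin promoter. Ganciclovir, given at 25 mg/kg when the mice were 8 to 9 weeks old, removed the transgenic hepatocytes, and 1000000 cryopreserved primary human hepatocytes were then injected into the spleen. Mice with more than 0.5 mg/ml of human albumin in serum 8 to 12 weeks after transplantation were used, and 4 of them received an adenovirus with an shRNA against human HuR (humanized HuR KD) and 4 the LacZ control virus (humanized LacZ). The WT mice were male C57BL/6 animals bought at 8 weeks of age and kept for 10 to 14 days before use, of which 6 received an shRNA virus against mouse HuR (WT HuR KD) and 6 the LacZ virus (WT LacZ). All groups received 2000000000 pfu per mouse and were fasted for 4 h before the livers were taken on day 7. The livers of humanized mice still contain mouse cells, and only the human genes of these livers were analysed here. The WT livers contain all cell types of the organ, and in such bulk RNA fewer cells of a type and less RNA per cell cannot be told apart.

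Long-chain acyl-CoA molecules are remodelled in the endoplasmic reticulum by enzymes that add a pair of carbons (ELOVL proteins) or a double bond (desaturases). SCD puts the first double bond into saturated chains and supplies oleate for triglycerides. FADS2 and FADS1 act in turn on the essential fatty acids, with an elongation by ELOVL5 between their steps and further elongation by ELOVL2, and so produce arachidonic acid and the long omega-3 fatty acids. In the liver many of these genes are switched on by SREBP-1c and LXR, and some are held down by dietary polyunsaturated fatty acids.

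The expression values were transcripts per 1000000 (TPM), a unit scaled to gene length and to a library total of 1000000. The fold changes are differences of mean log2(TPM + 1), HuR KD minus LacZ, with the standard error (SE) of a limma fit over all genes with a mean of at least 1 TPM. A call is an unadjusted p under 0.05, with the Benjamini-Hochberg adjusted p printed beside it. Of the 8 human members 7 passed the filter, and all 8 mouse members did. Human ELOVL3 was listed at 0 in all 8 humanized livers and is not counted among the members tested.

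Library depth, recovered from the steps of the TPM values, was 2670469 to 20302454 reads on human genes in the humanized livers and 1423985 to 44668272 reads in the WT livers. In the humanized set, HuR KD 4 and LacZ 2 were the deepest libraries and stood apart from the other 6. Mitochondrial ribosomal RNA made up 49.1% of the TPM in each of them, and their deviations from the group means correlated at r = 0.53 over genes. In the WT set, LacZ 2 was the shallowest library, and it and HuR KD 6 had the lowest median correlations with the other livers, at 0.921 and 0.956. HuR mRNA itself was lower in every KD liver than in every control liver of its table. ELAVL1 was at 3.46 ± 0.76 TPM after KD and 5.67 ± 0.62 TPM in LacZ livers (SD, n = 4 each), and was called lower with a log2 fold change of -0.59 (SE 0.17, limma adjusted p = 0.214). Mouse Elavl1 was at 4.91 ± 0.69 against 9.50 ± 0.79 TPM (SD, n = 6 each), with a log2 fold change of -0.83 (SE 0.09, limma adjusted p = 0.00105). In the humanized table, none of 7 hepatocyte markers was called, all 5 T and NK cell markers were at 0 in every liver, and all 5 endothelial markers were below 1 TPM in every liver. Of the 6 human macrophage markers 3 were at 0 and 5 were below 1 TPM in every liver, and the 1 tested was not called. For the stellate cell list, 1 of 2 tested markers was called lower, with sums of 2.73 to 4.804 TPM after KD and 5.26 to 7.26 TPM in LacZ livers. The summed cholangiocyte markers ran from 5.26 to 29.4 TPM after KD and from 11.5 to 44.4 TPM in LacZ livers, with 2 of 4 tested markers called lower. Of the 5 adipocyte markers 3 were at 0 in every liver. The sums of this list, 39.5 to 78.9 against 25.8 to 43.4 TPM, come from the 2 tested, of which 1 was called higher. In the WT livers 3 of 6 macrophage and Kupffer cell markers were called lower, with sums of 77.8 to 141 TPM after KD and 119 to 171 TPM in LacZ livers. There, 1 of 3 tested T and NK cell markers was called lower, with sums of 2.40 to 8.31 against 5.16 to 13.2 TPM, and 1 of 6 stellate cell markers was called lower, with sums of 90.3 to 131 against 106 to 135 TPM. Of the 5 endothelial markers 1 was called higher, with sums of 124 to 155 against 121 to 152 TPM, and none of the hepatocyte, cholangiocyte or adipocyte markers tested was called. These calls are at an unadjusted p under 0.05. At that threshold 3.60% of all human genes tested were called higher and 7.87% lower, and 9.09% and 6.94% of all mouse genes tested. A single call in lists this short cannot be told from these shares. The part of these marker genes in the results below was not tested.

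Before the KD values, the control livers show the TPM of each enzyme's mRNA, a share of its own library and not an amount per tissue. In humanized LacZ livers SCD stood first with a median of 610.2 TPM and a range of 336 to 726 TPM, 7.56 times the median of ELOVL2, the elongase of long polyunsaturated chains, at 80.7 TPM. ELOVL5 followed at 53.4 TPM, below ELOVL2 in 4 of 4 livers with no overlap of their ranges. FADS2 at 46.7 TPM and FADS1 at 45.2 TPM could not be ordered, since FADS2 was the higher of the pair in 2 of 4 livers, and the range of ELOVL5 overlapped that of FADS2. ELOVL1, which builds saturated very long chains for sphingolipids, and ELOVL6, which makes stearate from palmitate, were at 20.7 and 20.4 TPM with overlapping ranges. ELOVL3 was listed at 0.

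The order of the mouse genes was another one. In WT LacZ livers Scd1 stood first with a median of 1333 TPM and a range of 717 to 2398 TPM, above the next gene in 6 of 6 livers. Elovl5 (median 527 TPM), Fads2 (478 TPM), Elovl3 (395 TPM) and Elovl2 (381 TPM) followed with overlapping ranges between neighbours. Fads1, at 147 TPM, was below Elovl2 and above Elovl6 in every one of the 6 livers with no overlap. Elovl6 and Elovl1 closed the order at 30.6 and 19.5 TPM, and Elovl6 was the higher in 6 of 6 livers although their ranges overlapped. The levels of the tables were not compared by a test, since human and mouse genes were normalised in separate tables. Protein-coding genes held 28.9% to 37.8% of the TPM in humanized livers and 75.6% to 77.6% in WT livers. Mitochondrial ribosomal RNA held 27.2% to 49.1% and 0%. Elovl3 is the member that was listed at 0 in the human table and stood between Fads2 and Elovl2 in the mouse table.

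The spread between control livers also differed among members. The coefficient of variation over the 6 WT LacZ livers was 6.98% for Fads1 and 10.1% for Fads2, 13.98% to 23.9% for the 5 elongases, and 47.1% for Scd1. Over the 4 humanized LacZ livers it was 11.8% for ELOVL1, 14.1% for ELOVL5, 18.2% for ELOVL2, 29.6% for SCD, 32.9% for FADS2, 45.7% for FADS1 and 51.2% for ELOVL6. The high values of FADS2, FADS1 and ELOVL6 came with LacZ 2, which held 21.8, 15.4 and 4.55 TPM of them and was the lowest of its group for each.

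**Figure D1:**
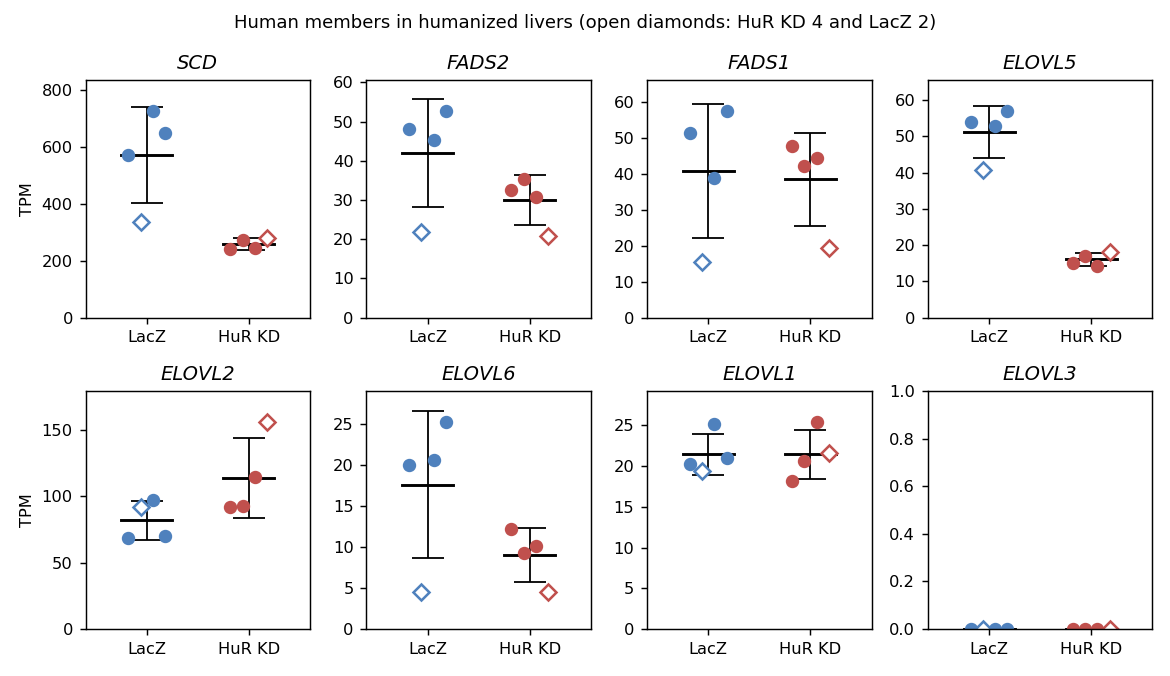
Each panel plots the TPM of a human member (y axis, linear from 0) in 4 LacZ and 4 HuR KD humanized livers. Points are livers, horizontal lines are group means and error bars are SD, and the open diamonds mark HuR KD 4 and LacZ 2. The ELOVL5 points lie at 14.2 to 18.1 TPM after KD and at 40.6 to 57.1 TPM in LacZ livers, and the open diamonds are the lowest points of both groups for FADS2, FADS1 and ELOVL6.

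ELOVL5 (ENSG00000012660.14), which lengthens the products of FADS2 and thereby feeds FADS1 and ELOVL2, had the largest fold change of the human members. It was at 14.96, 17.0, 14.2 and 18.1 TPM in HuR KD livers 1 to 4 and at 54.0, 40.6, 52.7 and 57.1 TPM in LacZ livers 1 to 4. All 4 KD livers were below all 4 LacZ livers. The log2 fold change was -1.60 (SE 0.15), and the mean after KD was 31.5% of the LacZ mean. These values rest on 89 to 1702 reads per liver. Without HuR KD 4 and LacZ 2 the log2 fold change was -1.76 (SE 0.12), and leaving out each liver in turn gave -1.71 to -1.55. These are the values that chose the set.

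SCD (ENSG00000099194.6) was the other human member whose groups did not overlap. It was at 239, 271, 244 and 281 TPM after KD and at 571, 336, 726 and 649.5 TPM in LacZ livers. The 4 KD livers lay close together, whereas the LacZ livers spread more widely, with LacZ 2 as their lowest. The log2 fold change was -1.08 (SE 0.23), and -1.36 (SE 0.13) without HuR KD 4 and LacZ 2. Of the 7 human members tested, 2 had groups that did not overlap, both lower after KD, where 5.03% of all 12738 human genes tested did so in that direction. ELOVL5 is 1 of these 2, and its separation restates the choice of the set, so the count is no support for a change of the members.

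The human desaturases of the polyunsaturated pathway depended on the livers that stood apart. FADS2 (ENSG00000134824.14), which takes the first step on linoleic and alpha-linolenic acid, was at 32.6, 35.4, 30.8 and 20.9 TPM after KD and at 48.1, 21.8, 45.4 and 52.7 TPM in LacZ livers. The groups overlapped only through LacZ 2, and the log2 fold change of -0.43 (SE 0.28) became -0.55 (SE 0.12) without HuR KD 4 and LacZ 2, with 30.8 to 35.4 TPM against 45.4 to 52.7 TPM. It was -0.71 without LacZ 2 alone and -0.27 without HuR KD 4 alone. FADS1 (ENSG00000149485.19), which makes arachidonic acid, was at 47.9, 42.3, 44.4 and 19.4 TPM after KD and at 51.6, 15.4, 38.9 and 57.7 TPM in LacZ livers. HuR KD 4 and LacZ 2 were far below the others of their groups. Its log2 fold change was -0.01 (SE 0.42), turned to 0.073 with median-of-ratios scaling and was -0.12 (SE 0.17) without the livers that stood apart. It was -0.41 without LacZ 2 alone and 0.28 without HuR KD 4 alone.

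Among the remaining human elongases, ELOVL6 (ENSG00000170522.9) was at 12.2, 9.30, 10.2 and 4.52 TPM after KD and at 20.1, 4.55, 20.7 and 25.3 TPM in LacZ livers. With HuR KD 4 and LacZ 2 set aside, the KD livers held 9.30 to 12.2 TPM and the LacZ livers 20.1 to 25.3 TPM. The log2 fold change was -0.75 (SE 0.48) over all livers and -0.99 (SE 0.16) without these livers, and it was -1.26 without LacZ 2 alone and -0.48 without HuR KD 4 alone. ELOVL2 (ENSG00000197977.4) was at 92.1, 92.8, 114 and 156 TPM after KD and at 68.2, 91.9, 96.9 and 69.6 TPM in LacZ livers, and it was the member with a positive fold change, at 0.46 (SE 0.21), which was 0.30 (SE 0.18) without HuR KD 4 and 0.36 (SE 0.18) without HuR KD 4 and LacZ 2. All 4 KD livers were above the LacZ mean, 2 were above all LacZ livers, and the groups overlapped through LacZ 3. ELOVL1 (ENSG00000066322.15) ranged from 18.2 to 25.4 TPM after KD and from 19.4 to 25.1 TPM in LacZ livers. Its log2 fold change was -0.003 (SE 0.15) and turned to 0.077 with median-of-ratios scaling. Of the 7 human members tested, 1 had a log2 fold change above 0 and 6 below 0, those of ELOVL1 and FADS1 by less than their SE, with a median of -0.43 beside -0.05 for all human genes tested. Among the 6 is ELOVL5, whose fold change chose the set.

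Without HuR KD 4 and LacZ 2, 4 of the 7 human members tested (SCD, ELOVL5, ELOVL6 and FADS2) had KD livers below all LacZ livers, and 14.5% of all human genes tested did so in that direction. The same count without LacZ 2 alone was also 4, where 11.5% of all human genes tested did so. Both counts include ELOVL5, whose lower values chose the set. The livers set aside were the deepest of the set and had the highest mitochondrial ribosomal RNA share, and the part of these in the values was not tested.

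**Figure D2:**
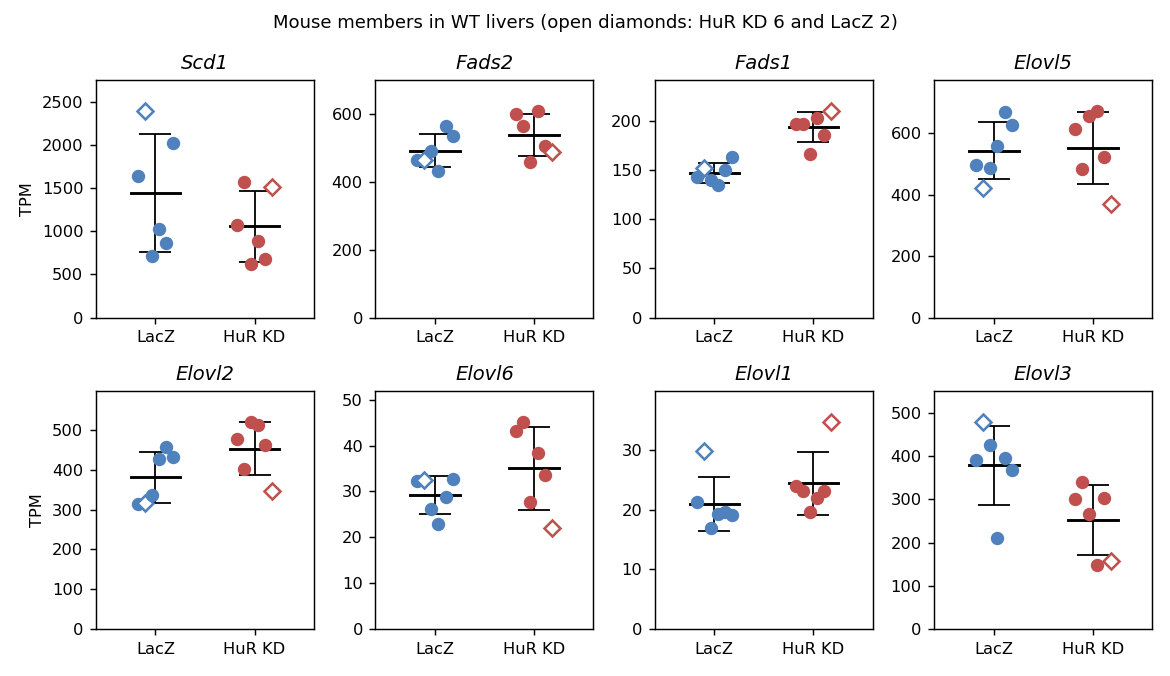
Each panel plots the TPM of a mouse member (y axis, linear from 0) in 6 LacZ and 6 HuR KD WT livers. Points are livers, horizontal lines are group means, error bars are SD, and open diamonds mark HuR KD 6 and LacZ 2. The Fads1 points after KD lie at 167 to 210.2 TPM, all above the LacZ points at 135 to 164 TPM, whereas the Elovl5 points of both groups share a range.

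The mouse counterpart of the leading human gene had a fold change near 0. Elovl5 (ENSMUSG00000032349.13, chromosome 9, 77917364 to 77984519, plus strand, GRCm38) ran from 371 TPM over a median of 568.0 TPM to 674 TPM after KD. In LacZ livers it ran from 423 over 527 to 669.6 TPM. Both groups covered the same range. The log2 fold change was 0.01 (SE 0.15) with a 95% interval of -0.32 to 0.35 (limma adjusted p = 0.976), and the exact permutation p was 0.937. The sign of this value near 0 turned in 7 alternatives. The difference between the human and the mouse log2 fold changes was -1.62 (SE 0.21), and it is given without a test because the human value chose the set.

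The mouse gene that passed the adjusted threshold was Fads1 (ENSMUSG00000010663.5, chromosome 19, 10182888 to 10196877, plus strand). After KD it was at 167 TPM in the lowest liver, 197 TPM at the median and 210.2 TPM in the highest, and in LacZ livers at 135, 147 and 164 TPM. All 6 KD livers were above all 6 LacZ livers. The means were 193 ± 15 and 147 ± 10 TPM (SD, n = 6 each), and Fads1 rose by 0.39 on the log2 scale (SE 0.07, 95% interval 0.24 to 0.53, limma adjusted p = 0.0263). The exact permutation p was 0.00216, the smallest that 6 against 6 livers can give. Without HuR KD 6 and LacZ 2 the value was 0.37 (limma adjusted p = 0.0185), and the livers left out in turn gave 0.36 to 0.43. Fads1 was called in each of these fits, but its adjusted p was above 0.05 in 7 of the 12, at 0.0569 to 0.0771 in limma, when HuR KD 1, 2, 4 or 5 or LacZ 1, 3 or 4 was left out. Groups without overlap and higher after KD were seen for 1.25% of all 15090 mouse genes tested.

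Elovl3 (ENSMUSG00000038754.5, chromosome 19, 46131897 to 46135694, plus strand), an elongase of saturated and monounsaturated very long chains that is sex-biased and rhythmic in mouse liver, was the mouse member called lower. It was at 147, 284 and 341 TPM (lowest, median and highest) after KD and at 211, 395 and 479 TPM in LacZ livers. The groups overlapped, and all 6 KD livers were below the LacZ mean. Elovl3 fell by 0.61 on the log2 scale (SE 0.24, limma adjusted p = 0.242), and the exact permutation p was 0.0584, against a limma p of 0.0268. The call was lost when HuR KD 4, HuR KD 6, LacZ 2 or LacZ 3 was left out, and without HuR KD 6 and LacZ 2 together the value was -0.41 (limma adjusted p = 0.348).

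The other mouse members did not pass the test. Elovl2 (ENSMUSG00000021364.16, chromosome 13, 41182381 to 41220405, minus strand) ranged from 348 to 520.2 TPM after KD and from 315 to 457 TPM in LacZ livers, and 4 of 6 KD livers were above all LacZ livers. Its log2 fold change was 0.26 (SE 0.13, 95% interval -0.02 to 0.53, limma adjusted p = 0.359), and without the livers that stood apart it was called at 0.28 (limma adjusted p = 0.176). Elovl6 (ENSMUSG00000041220.10, chromosome 3, 129532355 to 129638495, plus strand) gave 22.0 to 45.1 TPM against 22.8 to 32.7 TPM and a log2 fold change of 0.23 (95% interval -0.13 to 0.58). Elovl1 (ENSMUSG00000006390.15, chromosome 4, 118428093 to 118432953, plus strand) gave 19.7 to 34.7 TPM against 16.9 to 29.9 TPM and a log2 fold change of 0.21 (95% interval -0.10 to 0.52). In both groups the highest Elovl1 value was that of the liver that stood apart, and without these livers Elovl1 was called, at 22.4 ± 1.7 TPM after KD and 19.3 ± 1.6 TPM in LacZ livers (SD, n = 5 each, limma adjusted p = 0.102). Elovl6 was also called in that fit, at 0.38 (limma adjusted p = 0.135). In that fit 3497 of all 15090 mouse genes tested were called, against 2418 over all livers. With a single liver left out, Elovl6 ran from 0.15 without HuR KD 2 to 0.35 without HuR KD 6, where alone it was called. Elovl1 ran from 0.11 without HuR KD 6 to 0.31 without LacZ 2, where alone it was called, and Elovl2 ran from 0.20 to 0.33 and was called without HuR KD 6, LacZ 5 or LacZ 6.

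Fads2 (ENSMUSG00000024665.8, chromosome 19, 10062765 to 10101746, minus strand), the neighbour of Fads1, ranged from 459 to 610.3 TPM after KD and from 433 to 567 TPM in LacZ livers. Fads2 had a log2 fold change of 0.13 (95% interval -0.07 to 0.32, limma adjusted p = 0.551). Scd1 (ENSMUSG00000037071.3, chromosome 19, 44394455 to 44407879, minus strand) ranged from 623 over a median of 978 to 1575 TPM after KD and from 717 over 1333 to 2398 TPM in LacZ livers. The log2 fold change was -0.40 with a wide 95% interval of -1.12 to 0.32 (limma adjusted p = 0.609). With a liver left out it ran from -0.57 without LacZ 3 to -0.23 without LacZ 2, not called in any of these fits. A fit with a term for the replicate number called Scd1 at the same value (SE 0.08, limma adjusted p = 0.118). The labels do not say that these numbers mark pairs. In all, 1 of 8 mouse members was called higher and 1 lower, where 9.09% and 6.94% of all mouse genes tested were, and the share at an adjusted p under 0.05 was 0.888% of all genes. The median log2 fold change of the mouse members was 0.17, beside 0.03 for all mouse genes tested.

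**Figure D3:**
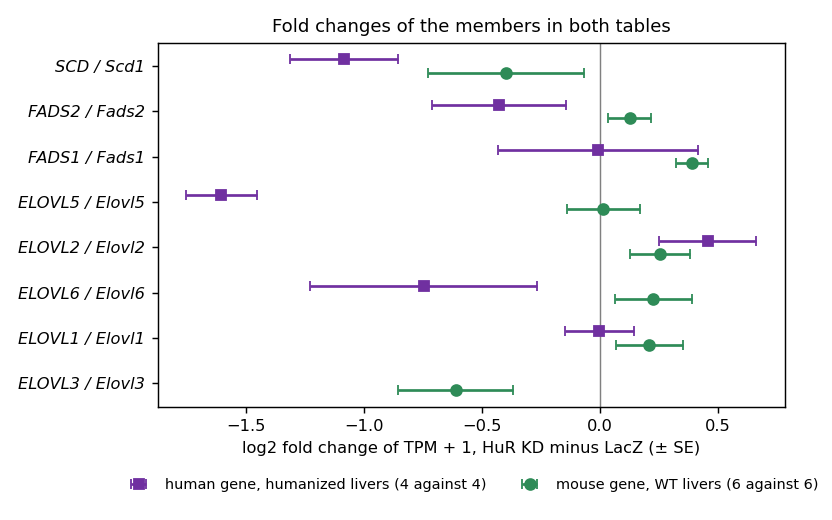
The x axis gives the log2 fold change of TPM + 1 (HuR KD minus LacZ) of each member, with bars of 1 SE, as squares for human genes (4 against 4 livers) and circles for mouse genes (6 against 6). Human ELOVL5 lies at -1.60 and mouse Elovl5 at 0.01, and no human value is drawn for ELOVL3, which was listed at 0.

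Side by side, SCD and Scd1 were both lower, at -1.08 and -0.40, and ELOVL2 and Elovl2 were both higher, at 0.46 and 0.26. ELOVL6 and Elovl6 had opposite signs, at -0.75 and 0.23, as had FADS2 and Fads2, at -0.43 and 0.13. The difference between human and mouse was -0.68 (SE 0.40) for SCD, 0.20 (SE 0.24) for ELOVL2, -0.97 (SE 0.51) for ELOVL6 and -0.55 (SE 0.30) for FADS2. For FADS1 it was -0.40 (SE 0.43) and for ELOVL1 -0.21 (SE 0.20).

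The make-up of the whole group was compared within each library. Shares and ratios within a library do not depend on how libraries are scaled, whereas the summed TPM does. In humanized livers the members summed to 457 to 521 TPM after KD and to 529.7 to 1006 TPM in LacZ livers. SCD held 50.5% to 55.4% of that sum after KD and 63.4% to 72.2% in LacZ livers, and ELOVL5 held 2.94% to 3.49% against 5.24% to 7.67%. ELOVL2 held 19.0% to 29.9% after KD and 7.46% to 17.3% in LacZ livers. The ratio of ELOVL5 to ELOVL2, successive elongases of the same pathway, was 0.162, 0.183, 0.125 and 0.116 in the KD livers and 0.793, 0.442, 0.544 and 0.820 in the LacZ livers. HuR KD 4 and LacZ 2 had the lowest ratio of their groups, and the groups stayed apart. The ELOVL5 values in this ratio and in the ELOVL5 share are those that chose the set, so their separation restates that choice. A share also moves with the other members of the sum, and the ELOVL2 groups overlapped in TPM.

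In WT livers the members summed to 2719 to 3630.1 TPM after KD and 2640.04 to 4298 TPM in LacZ livers. Scd1 varied from 22.7% to 48.2% of the sum after KD and from 27.2% to 55.8% in LacZ livers. The ratio of Elovl5 to Elovl2 was 1.07 to 1.31 after KD with a median of 1.23, and 1.31 to 1.57 in LacZ livers with a median of 1.45. These ranges overlapped at their ends. The mean log2 ratio fell by 0.24 (SE 0.06, two-sided exact permutation p = 0.00433), and by 0.23 without HuR KD 6 and LacZ 2 (exact permutation p = 0.0159). This ratio was chosen with the values of both genes known.

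**Figure D4:**
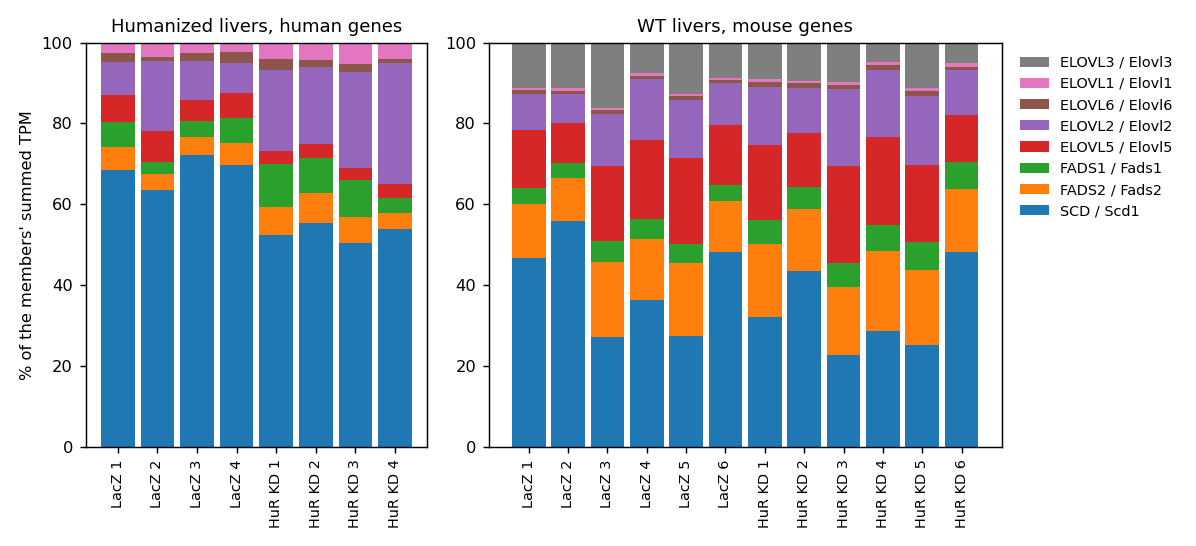
Stacked bars give the share of each member in the members' summed TPM (y axis, percent) for every liver, the 8 humanized livers on the left and the 12 WT livers on the right. ELOVL5 takes 5.24% to 7.67% of the bar in humanized LacZ livers and 2.94% to 3.49% after KD, while Scd1 takes from 22.7% to 55.8% across the WT livers.

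Elovl5 and Elovl2 also moved together from liver to liver. Over the 12 WT livers, with the group means removed, the 28 pairs of mouse members were compared, and 1 pair passed at an adjusted p under 0.05. That pair was Elovl5 and Elovl2, with Pearson r = 0.94 (permutation p = 2.00e-05, adjusted p = 0.00056) and Spearman rho = 0.92 (permutation p = 0.00013, adjusted p = 0.00364). Without the 2 livers farthest from the Elovl5 median r was 0.90, and without HuR KD 6 and LacZ 2 it was also 0.90. Scd1 with Elovl1 gave r = 0.71 (permutation p = 0.00502, adjusted p = 0.0703) and rho = 0.68 (permutation p = 0.0233, adjusted p = 0.130), and r = 0.54 without the 2 farthest livers. The negative value of Elovl5 with Elovl1, r = -0.74 (permutation p = 0.00921, adjusted p = 0.0860) and rho = -0.64 (permutation p = 0.0408, adjusted p = 0.190), shrank to -0.18 without the 2 farthest livers. No pooled correlation is given for the humanized livers, where HuR KD 4 and LacZ 2 stood apart from the others.

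**Figure D5:**
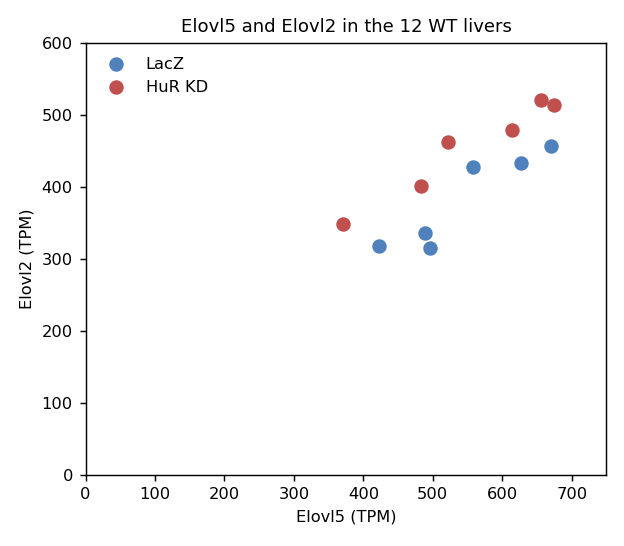
The x axis gives Elovl5 and the y axis Elovl2 in TPM, both linear from 0, for 6 LacZ and 6 HuR KD WT livers. Both sets of points climb together (r = 0.94 with the group means removed), and the KD points lie above the LacZ points at a like Elovl5 level.

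By the same measure, the 3 mouse genes most like Elovl5 among the 15090 tested were Pigp (r = 0.94), Elovl2 (r = 0.94) and Tbc1d17 (r = 0.92) over 12 livers. These values describe the libraries, which share depth and RNA composition, and carry no test.

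HuR binds U-rich and AU-rich stretches, often in the 3′ untranslated region, so these letters were looked up in the mouse transcripts of GENCODE M21 (GRCm38). The motifs were a run of at least 7 T, counted once per run, and TATTTAT, counted at each start so that overlapping copies count, both on the transcript strand. The Elovl5 region of 1711 bases held 4 such T runs and 1 TATTTAT. Among 2983 regions of 0.8 to 1.25 times its length, 54.2% held a T run, with a mean of 0.955 runs, and 37.6% held TATTTAT. Scd1 held 4 T runs in 3464 bases and Elovl2 held 3 in 2913 bases, where 78.2% and 73.4% of the regions of like length held at least 1. Elovl3 held 2 overlapping copies of TATTTAT in 892 bases and no T run, and 22.3% of the regions of like length held the AU-rich motif. Elovl2 also held 1 TATTTAT, and 52.8% of the regions of like length held it. Elovl6 held 3 copies of TATTTAT and 2 T runs in 5005 bases, where 67.1% and 87.7% of the regions of like length held at least 1. Scd1 held no TATTTAT. Neither motif was found in the regions of Fads1 (1952 bases), Fads2 (1498 bases) or Elovl1 (834 bases). The windows below show the T runs and the TATTTAT of Elovl5, the counterpart of the leading human gene. For Elovl3, the mouse member called lower, the window marks the later of its 2 overlapping TATTTAT copies. The earlier copy reads mostly in lower case there. Capitals mark the motif, and the sequences run 5′ to 3′ on the transcript strand.
Elovl5, chr9:77983139-77983165, plus strand: atccaaacTTTTTTTTTTTaactgtag
Elovl5, chr9:77983468-77983490, plus strand: agatcttaTTTTTTTattttgag
Elovl5, chr9:77983768-77983792, plus strand: ggtccacaTTTTTTTTTattctttt
Elovl5, chr9:77983953-77983975, plus strand: atctgtaaTTTTTTTctgattag
Elovl5, chr9:77984192-77984214, plus strand: gggtttgaTATTTATgtaaatac
Elovl3, chr19:46135055-46135077, plus strand: gttatttaTATTTATatttagaa
A match is a description of letters and not of a bound site.

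Promoters from 250 bases before to 50 bases after the start were given by RefSeq (GRCm38.p6) for 5 of the 8 mouse members, with 7 promoters in all. On both strands, the SREBP-type motif TCACNCCAC was in none of the 7, and in 1.24% of all 32851 promoters. CCAAT occurred 2 times in the Elovl5 promoter and not in either Elovl2 promoter, and 37.4% of all promoters hold it. The GC box GGGCGG occurred 5 times in 1 of the Elovl2 promoters and not in that of Elovl5, and 35.7% of all promoters hold it. Elovl5 and Elovl2, whose levels moved together, shared none of these 3 motifs in the windows read. The Elovl5 copies of CCAAT, shown as they read on the gene's strand with the motif in capitals, were the following.
Elovl5, chr9:77917284-77917308, plus strand: tcgccccaggATTGGttccaaggcc
Elovl5, chr9:77917338-77917362, plus strand: ccgggctcggATTGGctggccgcgc

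The genes around the members were then followed by lists of the same pathway. Of 41 listed genes tested in humanized livers, 6 were called higher and 5 lower (26.8%, where 11.5% of all human genes tested were called), and in limma none passed an adjusted p under 0.05, as 0.212% of all human genes did. With median-of-ratios scaling the split was 11 higher and 3 lower, while that of all human genes went from 458 higher (3.60%) and 1003 lower (7.87%) to 817 and 838. Of 53 listed genes tested in WT livers, 7 were called higher and 4 lower (20.8%, where 16.0% of all mouse genes tested were called), with none at an adjusted p under 0.05, and the split was 5 and 6 with median-of-ratios scaling. Without the livers that stood apart, 13 human and 11 mouse genes were called, 9 of them in each table also called over all livers. The human genes gained were GPAM, INSIG1, LPCAT3 and ME1 and those lost FASN and HSD17B4, and the mouse genes gained were Hacd1 and Me1 and those lost Acacb and Hsd17b12, and INSIG1, LPCAT3, ME1, Hacd1 and Me1 are named here after their values were seen. In these fits 1 human gene (GPAM) and 2 mouse genes (Acss2 and Lpcat3) had a limma adjusted p under 0.05. Of all 12738 human genes tested, 2008 were called in that fit and 99 had an adjusted p under 0.05. Of all 15090 mouse genes tested, 3497 were called and 790 had an adjusted p under 0.05.

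Of the enzymes that complete the elongation cycle with the ELOVL proteins, 1 of 4 tested human genes and 1 of 6 mouse genes were called, and it was the same gene, HSD17B12, the ketoacyl reductase of the cycle. HSD17B12 was at 8.84 ± 1.87 TPM after KD and 17.5 ± 4.0 TPM in LacZ livers (SD, n = 4 each), with ranges of 7.498 to 11.5 and 13.9 to 22.0 TPM that did not overlap. It fell by 0.90 on the log2 scale (SE 0.20, limma adjusted p = 0.104). Mouse Hsd17b12 was at 112 ± 10 and 137 ± 22 TPM (SD, n = 6 each) and fell by 0.28 (SE 0.10, limma adjusted p = 0.190), and this call was lost without HuR KD 6 and LacZ 2 (limma adjusted p = 0.236). The median of this list was -0.10 in the humanized and 0.06 in the WT table. A list of cytochrome b5 genes was read for the electron supply of the desaturases, which act in the endoplasmic reticulum. CYB5A, the abundant form of that compartment, had a log2 fold change of 0.08 (SE 0.13) in humanized livers. The call in this list was CYB5B, the form of the outer mitochondrial membrane, which fell by 0.76 (SE 0.27, limma adjusted p = 0.318). In WT livers Cyb5r1 rose by 0.23 (SE 0.10, limma adjusted p = 0.276). The list medians were 0.06 and 0.08 for 4 genes each.

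The genes that supply palmitate and malonyl-CoA gave 1 higher and 1 lower call of 7 in humanized livers, with a list median of -0.23. FASN, the fatty acid synthase, rose from 55.4 ± 16.2 to 80.8 ± 10.5 TPM (SD, n = 4 each, log2 fold change 0.57, SE 0.21, limma adjusted p = 0.335), opposite in sign to SCD in the same livers, and this call was lost without HuR KD 4 and LacZ 2 (limma adjusted p = 0.360). SLC25A1, the mitochondrial citrate carrier, fell by 0.52 (limma adjusted p = 0.350). In WT livers 2 of 8 were called higher and 1 lower, with a median of 0.14. Acly, which cleaves citrate to acetyl-CoA, rose from 68.4 ± 6.6 to 101 ± 21 TPM (SD, n = 6 each, log2 fold change 0.54, SE 0.14, limma adjusted p = 0.0818). Acacb, a carboxylase that makes malonyl-CoA, rose by 0.30 (limma adjusted p = 0.258), lost without HuR KD 6 and LacZ 2 (limma adjusted p = 0.250). Acss2, the cytosolic acetate-activating enzyme, fell by 0.21 (limma adjusted p = 0.259), and by 0.26 without HuR KD 6 and LacZ 2 (limma adjusted p = 0.0091).

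Of 13 regulators of these genes, 2 were called higher and 2 lower in humanized livers. RXRA, the partner of LXR and PPAR, rose from 20.9 ± 1.5 to 29.1 ± 1.6 TPM (SD, n = 4 each, log2 fold change 0.46, limma adjusted p = 0.161), and MLXIPL, the carbohydrate-response factor ChREBP, rose by 0.36 (limma adjusted p = 0.419). MBTPS1, the protease that makes the first cut in SREBP, fell from 10.9 ± 1.6 to 6.37 ± 0.65 TPM (SD, n = 4 each, log2 fold change -0.69, limma adjusted p = 0.104). INSIG2, which retains SREBP in the endoplasmic reticulum, fell by 0.56 (limma adjusted p = 0.368). In WT livers Scap, the SREBP escort protein, rose by 0.21 (limma adjusted p = 0.312) and Mbtps2, the protease of the second cut, fell by 0.28 (limma adjusted p = 0.263). The medians of this list were 0.03 and 0.05.

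Peroxisomes carry out the last chain-shortening step of docosahexaenoic acid synthesis. Of that list, 2 of 7 human genes were called, both higher: ACAA1, the thiolase, by 0.54 (limma adjusted p = 0.279) and HSD17B4, the bifunctional enzyme, by 0.37 (limma adjusted p = 0.395), the latter lost without HuR KD 4 and LacZ 2 (limma adjusted p = 0.373). Of 9 mouse genes, Ehhadh, another bifunctional enzyme of peroxisomal oxidation, rose by 0.41 (limma adjusted p = 0.300). The list medians were 0.12 and 0.02. Of the acyltransferases that place the fatty acids in lipids, AGPAT2, which makes phosphatidic acid, rose in humanized livers from 31.7 ± 15.3 to 66.2 ± 14.2 TPM with no overlap of the groups (SD, n = 4 each, log2 fold change 1.14, SE 0.32, limma adjusted p = 0.199), and it was the 1 call among 5 tested. GPAM, which starts glycerolipid synthesis, was at 104 ± 25 and 220 ± 112 TPM (SD, n = 4 each), and its log2 fold change of -0.89, not called (limma adjusted p = 0.510), became -1.21 without HuR KD 4 and LacZ 2 (limma adjusted p = 0.0350). In WT livers 2 of 10 were called. Lpcat3, which puts arachidonate into phospholipids, rose by 0.27 (SE 0.08, limma adjusted p = 0.110), and by 0.31 without HuR KD 6 and LacZ 2 (limma adjusted p = 0.0224), and Mboat7, which puts it into phosphatidylinositol, fell by 0.25 (SE 0.08, limma adjusted p = 0.160). The list medians were 0.21 and -0.02.

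Of the elongases and desaturases outside the set, FADS3 was the single gene past the filter of 5 listed in the humanized table, with a log2 fold change of -0.34 (SE 0.28, limma adjusted p = 0.712). The mouse list held 7 genes, of which 3 were tested, and Fads6, a desaturase-like gene, was called and rose from 75.9 ± 5.4 to 94.9 ± 11.8 TPM (SD, n = 6 each, log2 fold change 0.31, SE 0.08, limma adjusted p = 0.0965).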

How the data were processed

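Total RNA from livers was made into stranded TruSeq libraries and sequenced paired-end by the authors, who trimmed the reads, aligned them with HISAT2 to the mouse genome (WT) or to a combined human and mouse index (humanized), counted them with featureCounts and deposited TPM per gene in 2 tables. The treatment of reads that align to both species, and the gene lengths used, are not given in the sources used here. The gene names were taken from the tables, and groups and replicate numbers from the sample titles. Reads per gene were recovered from the steps of the TPM values (within 0.05 of a whole read), for 100% of the 18702 human and 25110 mouse genes above 0 in at least 4 libraries, and served for depth and an alternative fit.

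Each table was fitted with limma 3.58.1 in R 4.3.3 on log2(TPM + 1), with genes of a mean TPM of at least 1, an eBayes trend, Benjamini-Hochberg adjustment over all genes tested and no batch or replicate term. For single mouse genes an exact permutation test (two-sided) enumerated every regrouping of the 12 livers, and correlations were tested by 100000 permutations within groups (scipy 1.17.1, numpy 2.4.6). The fits were tested on simulated data. Alternatives changed the pseudocount, filter, scaling, trend, replicate block, livers and call threshold. The members, the pathway lists and the tests were chosen with earlier results of these data known. Named genes were all members, HuR, every called gene of a pathway list or else at most its 2 most abundant, and the 3 genes most like Elovl5 in the WT livers. Genes most like ELOVL5 were also computed for the humanized livers but are not printed. There, HuR KD 4 and LacZ 2 stood apart from the others. Replicates are livers of separate mice. The paper names, as a limit, that the hepatocytes of its humanized mice came from few donors. The labels used here give no donor for a liver. Differences between donors therefore cannot be told apart from other differences between the humanized livers, and their part was not tested. No column lay outside the samples.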

Additional observations from a re-analysis of the deposited data

Results flagged for a closer look

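In 30 groups of member values checked, 2 held a liver far from the others of its group by Dixon's criterion, which chance meets in about 1 of 20 groups. Both were Elovl1 in the WT livers. Elovl1 was at 34.7 TPM in HuR KD 6, whereas the other 5 KD livers held 19.7 to 24.0 TPM. It was at 29.9 TPM in LacZ 2, whereas the other 5 LacZ livers held 16.9 to 21.3 TPM. These livers are the pair that stood apart in the whole table, with 12960373 and 1423985 reads, the lowest depths of the WT set.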

How the results depend on the processing

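Human ELOVL5 and SCD stayed lower, and Fads1 and HuR mRNA stayed called at an unadjusted p under 0.05, under each alternative run. The adjusted p of Fads1 in limma, 0.0263, ran from 0.00863 to 0.0990 and was above 0.05 in 8 of 21 alternatives, 7 of them with a liver left out. The log2 fold change of human ELOVL1, -0.003, turned to 0.0773 with median-of-ratios factors, 0.0565 with quantile normalization, 0.0198 without mitochondrial ribosomal RNA and 0.0825 with voom on recovered reads, and ran from -0.0839 to 0.0716 with a liver left out. That of FADS1, -0.0095, turned to 0.0732, 0.0595, 0.015 and 0.0557 under the same settings and ran from -0.4091 to 0.2818. That of Elovl5, 0.0135, turned to -0.0015 with quantile normalization and ran from -0.0552 to 0.1226. These sign changes were smaller than the SE of their fit. The mouse members called, 2 in all, were 4 with voom, 4 without the livers that stood apart, 1 at an adjusted p under 0.05 and 1 to 3 with a liver left out (1 without HuR KD 4 or LacZ 3). The calls among all mouse genes rose as well, from 2418 of 15090 to 3017 of 15077 with voom. They were 3497 of 15090 without the livers that stood apart. The human members without overlap, 2 in all with ELOVL5 among them, were 4 without the livers that stood apart and 2 to 4 with a liver left out (4 without LacZ 2). The pathway calls, 11 in each table by limma, were 0 at an adjusted p under 0.05, 13 (humanized) and 12 (WT) with voom, 17 with a block for the humanized livers that stood apart, and 7 to 11 (humanized; 7 without HuR KD 2, HuR KD 3 or LacZ 1) and 6 to 12 (WT; 6 without HuR KD 4 or LacZ 1) with a liver left out. Among all human genes, 1461 of 12738 were called in the main fit, 1326 of 12385 with voom and 1920 of 12738 with that block. Setting aside these livers, and that block, were chosen after seeing the data. The labels do not say that replicate numbers mark pairs. Over all genes tested, the deviations of same-numbered livers correlated at -0.25 to 0.14 (humanized) and -0.14 to 0.21 (WT), not all above 0.1. The main fits therefore did not take the numbers as pairs, but whether they mark pairs cannot be told. Of the KD livers 1 of 4 and 2 of 6 matched best with their own number. With the replicate block 3 mouse members were called, Scd1 with a limma adjusted p of 0.118, Elovl3 with 0.112 and Fads1 with 0.0990. Of all 15090 mouse genes tested, 2242 were called in that fit. The SE of Scd1 was 0.08 with that block and 0.33 without it, and that of Elovl3 was 0.12 and 0.24. It was larger with the block for Elovl5 (0.163 and 0.154), Elovl2 (0.130 and 0.128) and Fads2 (0.109 and 0.090). Both Scd1 and Elovl3 were lower after KD in 6 of 6 same-numbered livers, and Fads1 was higher in 6 of 6. With that block 11 and 9 pathway genes were called and 2 human members had no overlap. Rescaling without mitochondrial ribosomal RNA was not run for the WT table, where these RNAs hold 0% of the values. The cause of these shifts was not tested. The values of the shallow libraries rest on few reads, with as few as 89 on human ELOVL5, 71 on human ELOVL1 and 48 on mouse Elovl1 in a liver.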
